A study of Mus musculus with 50 samples.

Results

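The kappa variable (Igkv) genes of the mouse were followed across 50 lymph node RNA-seq libraries. They were taken as the rows of the deposited count table whose gene name starts with Igkv and whose estimated counts, summed over all libraries, reach at least 10. Of 56600 gene entries, 160 carried such a name, and 118 met the minimum. Of the other 42 entries, 13 were at 0 in every library. The members nearest the minimum were Igkv13-76 with 12.1 summed counts, Igkv1-131 with 12.18, Igkv9-128 with 12.93 and Igkv17-134 with 16.2, and the nearest entries outside it were Igkv12-49 with 9.92, Igkv1-108 with 8.99, Igkv2-105 with 6.95 and Igkv13-82 with 5.97. The gene names, not any measured difference between groups, chose the members. In the mouse annotation used here (GENCODE M21, GRCm38) all 118 lie on chromosome 6, between bases 67555497 and 70704177, 99 as V genes and 19 as V pseudogenes.

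The study compared gut-draining lymph nodes of mice raised with or without dietary vitamin A. C57BL/6J dams received a vitamin A deficient diet (TD.86143) or, as the control, a diet of matched ingredients (TD.91280) containing 20 IU/g of vitamin A, starting 3 weeks ahead of mating, and the second litter and the one after it were collected at postnatal day 56, at 8 weeks of age. Duodenal, jejunal, ileal and colonic nodes, which drain the gut, and inguinal nodes, which drain skin, gave 5 libraries each per diet, numbered 1 to 5. All 25 deficient libraries came from females. Of the sufficient libraries, those numbered 1 and 2 came from females (10 libraries) and those numbered 3, 4 and 5 from males (15 libraries). The dams carried the diet from before mating, so litter and dam cannot be told apart from diet. Whether nodes with the same number were taken from 1 mouse is not stated in the labels, and the p-values reflect only the variation among these libraries.

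An immunoglobulin light chain transcript of the kappa type joins a single V gene, a short J gene and the constant gene Igkc. The V gene is picked by DNA rearrangement while the B cell develops, and its descendants keep it, so the mix of V genes in a node reflects which B cells and plasma cells contribute RNA to it. Plasma cells, which secrete antibody, hold far more light chain mRNA per cell than resting B cells. Retinoic acid, made from vitamin A in the gut, is known to direct lymphocytes to the intestine and to favour switching to IgA. In a bulk library a change in the number of cells and a change in RNA per cell cannot be told apart.

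V genes differ mainly in the loops that contact antigen, and the 3′ end of the V gene starts the last of these loops. The last 60 coding bases of 6 genes are shown to make that part visible. They are the 5 genes with the highest mean use and Igkv9-120, which was added because it was called for diet in 3 nodes, read from GRCm38, 5′ to 3′ on the gene's own strand. Capitals mark the last in-frame cysteine codon, the conserved cysteine that precedes this loop.
Igkv1-110 (chr6:68271208-68271267, plus strand): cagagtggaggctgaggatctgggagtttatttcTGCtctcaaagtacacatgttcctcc
Igkv10-96 (chr6:68631963-68632022, minus strand): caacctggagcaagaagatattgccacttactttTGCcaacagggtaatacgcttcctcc
Igkv1-117 (chr6:68121768-68121827, plus strand): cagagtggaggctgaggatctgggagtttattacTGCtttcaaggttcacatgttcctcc
Igkv4-59 (chr6:69438218-69438277, minus strand): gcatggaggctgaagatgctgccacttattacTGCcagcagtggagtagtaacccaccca
Igkv17-121 (chr6:68037259-68037318, plus strand): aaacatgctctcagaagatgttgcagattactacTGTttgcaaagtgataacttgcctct
Igkv9-120 (chr6:68050397-68050456, plus strand): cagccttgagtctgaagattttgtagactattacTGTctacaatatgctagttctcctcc

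Some V genes are near copies, which bears on how surely an estimated count belongs to the gene named. Igkv1-110 and Igkv1-117 had 96.8% identical transcripts and differed at 10 coding bases, and Igkv17-121 and Igkv17-127 had 97.5% identical transcripts and differed at 9. The 150 coding bases with the most differences in each pair are shown, with the differing bases in capitals (6 in the first pair, 3 in the second).
Igkv1-110 (chr6:68270955-68271104, plus strand): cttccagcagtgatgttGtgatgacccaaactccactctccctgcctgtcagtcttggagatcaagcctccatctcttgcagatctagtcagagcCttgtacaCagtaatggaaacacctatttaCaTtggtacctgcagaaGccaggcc
Igkv1-117 (chr6:68121515-68121664, plus strand): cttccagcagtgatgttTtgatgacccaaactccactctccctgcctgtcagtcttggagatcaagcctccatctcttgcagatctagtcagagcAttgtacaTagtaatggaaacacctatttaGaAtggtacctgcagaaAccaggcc
Igkv17-121 (chr6:68037021-68037170, plus strand): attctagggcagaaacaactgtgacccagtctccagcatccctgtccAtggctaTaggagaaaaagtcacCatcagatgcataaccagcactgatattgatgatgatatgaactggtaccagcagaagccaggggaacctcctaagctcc
Igkv17-127 (chr6:67861362-67861511, plus strand): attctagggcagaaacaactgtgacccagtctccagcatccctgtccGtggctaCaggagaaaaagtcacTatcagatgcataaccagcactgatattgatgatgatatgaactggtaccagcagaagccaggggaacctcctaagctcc
Of stretches of 31 bases, the share found in no other annotated transcript was 36.4% for Igkv1-110, 37.4% for Igkv1-117, 53.7% for Igkv17-121, 32.8% for Igkv17-127, 52.0% for Igkv10-96 and 13.0% for Igkv4-59. Of the 118 members, 50 had under 50% unique stretches, 5 had only unique ones, and 19 had a relative among the members with at least 95% identity. Values for single genes with close relatives are therefore uncertain to the extent that reads were split between them. Whether the counting used strand was not given in the sources used here.

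Libraries held 5335369 to 8904722 estimated counts, of which 2959 to 28524 were Igkv counts and 525570 over all libraries. All 10 B cell genes (Ms4a1, Cd79a and others), all 8 T cell genes (Cd3e, Cd4 and others) and all 6 lymph node stromal genes (Ccl19, Madcam1 and others) passed the filter on low counts. That filter is counted over all libraries and does not show the identity of each library. A pair of properties of whole libraries recurs below. The processed pseudogene Gm19220 took 1.029 to 1.704% of counts in 10 deficient libraries (colonic 2, 3 and 5, duodenal 3, ileal 2 and 3, inguinal 2, 3 and 5, jejunal 3) and 5.367 to 9.826% in the other 40. Pancreatic acinar transcripts, from a tissue that lies beside the duodenal node, took over 1% of counts in 6 libraries (sufficient duodenal 2 and 5, sufficient jejunal 3, deficient duodenal 2, 3 and 4).

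Igkv transcripts made up a larger part of the RNA in the gut-draining nodes of deficient mice than in those of sufficient mice, and the inguinal nodes held the least under both diets. In duodenal nodes the Igkv share of all counts was 0.0876, 0.0659, 0.0980, 0.0959 and 0.0491% in sufficient libraries 1 to 5 and 0.156, 0.178, 0.174, 0.139 and 0.166% in deficient libraries 1 to 5. In ileal nodes it was 0.0809, 0.0690, 0.0958, 0.118 and 0.115% against 0.196, 0.208, 0.182, 0.274 and 0.189%. In colonic nodes it was 0.175, 0.107, 0.116, 0.143 and 0.107% against 0.254, 0.224, 0.205, 0.345 and 0.228%. In these 3 nodes every deficient library lay above every sufficient one. In jejunal nodes the shares were 0.0731, 0.0507, 0.118, 0.108 and 0.152% against 0.324, 0.190, 0.236, 0.190 and 0.119%, and deficient library 5 lay below sufficient library 5. In inguinal nodes they were 0.0471, 0.0762, 0.0513, 0.0539 and 0.0541% against 0.0446, 0.0999, 0.0821, 0.0731 and 0.0502%, and the diets overlapped.

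As means ± SD of 5 libraries, the sufficient shares were 0.0793 ± 0.0211% in duodenal, 0.1004 ± 0.0397% in jejunal, 0.0957 ± 0.0212% in ileal, 0.129 ± 0.0294% in colonic and 0.0566 ± 0.0114% in inguinal nodes. The deficient shares were 0.162 ± 0.0157, 0.212 ± 0.0753, 0.210 ± 0.0372, 0.251 ± 0.0553 and 0.06998 ± 0.0228% in the same order. The ratios of the means were 2.05 in duodenal, 2.11 in jejunal, 2.19 in ileal, 1.94 in colonic and 1.24 in inguinal nodes. Without the 10 libraries low in Gm19220 the deficient means were 0.160% in duodenal (n = 4), 0.206% in jejunal (n = 4), 0.220% in ileal (n = 3), 0.299% in colonic (n = 2) and 0.0589% in inguinal nodes (n = 2). The part that this property plays in the shares was not tested. No test was made on the summed share, which is a score over the members. Counting error is small beside the spread of libraries. The library with the fewest Igkv counts, sufficient jejunal 2, had a 95% Wilson interval of 0.0489 to 0.0525%, and such intervals cover counting error only.

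**Figure D1:**
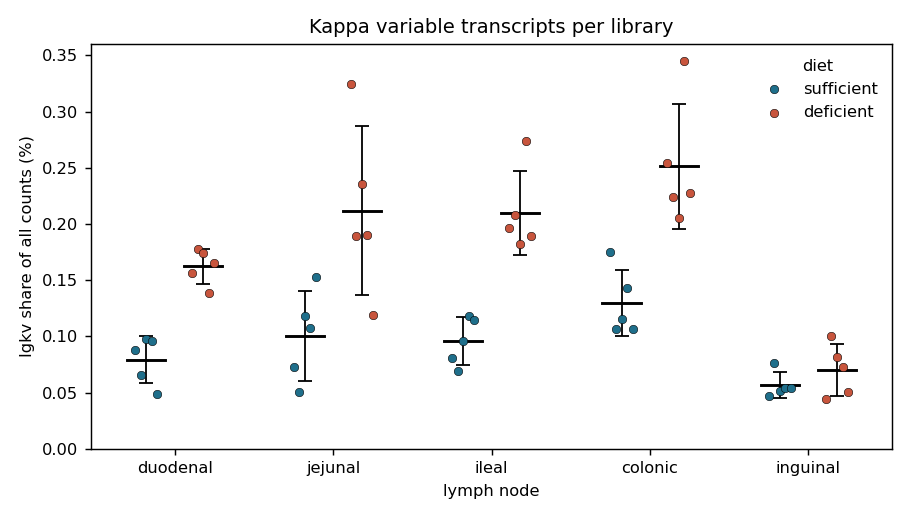
Igkv share of all estimated counts, in percent, by lymph node and diet. Each point is a library, bars are the mean and SD of 5 libraries, and the deficient points lie wholly above the sufficient ones in duodenal, ileal and colonic nodes.

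The constant gene Igkc, which every kappa transcript carries, is a single gene outside the member list and could be tested. In normalised library-scaled counts (CPM, with TMM scaling), duodenal Igkc was 1516, 1428, 2271, 2354 and 1823 in sufficient libraries and 3169, 3885, 3252, 4611 and 3260 in deficient ones. Ileal Igkc was 1540, 1613, 2375, 2748 and 2830 CPM against 4612, 4432, 3728, 5385 and 4089 CPM. Neither node had overlapping diets, whereas in inguinal nodes (839 to 1592 CPM against 753 to 1850 CPM) the deficient libraries spanned the sufficient ones. As a share of all counts, jejunal Igkc also overlapped, with 0.263% in deficient library 5 against 0.269 and 0.318% in sufficient libraries 4 and 5. Colonic shares did not overlap, at 0.235 to 0.302% against 0.375 to 0.741%. Igkc rose under deficiency by 1.27 ± 0.25 (log2 difference ± SE) in duodenal nodes (adjusted p = 0.00063), 1.39 ± 0.26 in jejunal (0.00062), 1.34 ± 0.26 in ileal (0.00049) and 1.12 ± 0.25 in colonic nodes (0.00739) by edgeR's quasi-likelihood test with Benjamini-Hochberg adjustment over 18387 genes. The inguinal difference was 0.47 ± 0.25 (adjusted p = 0.464). The duodenal call was lost without the libraries rich in pancreatic transcripts (1.0, adjusted p = 0.14), and the colonic call without the sex term (0.84, adjusted p = 0.058) or with females only (0.87, adjusted p = 0.38). Fitted diet differences are adjusted for sex, estimated from sufficient mice only, and can depart from differences of the printed CPM.

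The gap between gut-draining and inguinal nodes in Igkc was 0.83 ± 0.20 under sufficiency (adjusted p = 0.00194) and 1.64 ± 0.21 under deficiency (adjusted p = 2.1e-07). The first of these calls was lost with females only (0.47, adjusted p = 0.45). The difference between the 2 gaps, an interaction term, was 0.81 ± 0.26 and did not pass (adjusted p = 0.148). Small intestinal nodes did not differ detectably from colonic nodes, with log2 differences of -0.46 ± 0.19 under sufficiency and -0.25 ± 0.19 under deficiency (adjusted p = 0.203 and 0.732). The Igkv counts followed Igkc closely. Their ratio was 0.468 on average over the 50 libraries and ranged from 0.364 to 0.607.

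Igkc also took a larger mean part of the light chain constant transcripts, beside those of lambda, the other light chain class, in the gut-draining nodes of deficient mice. It made up 81.9% of light chain constant counts in sufficient duodenal nodes, 80.8% in jejunal, 79.3% in ileal, 85.9% in colonic and 79.7% in inguinal nodes. In deficient nodes it made up 88.0, 90.8, 91.8, 89.5 and 80.2%. By library the diets did not overlap in jejunal (75.65 to 83.9% against 89.15 to 93.1%) and ileal nodes (74.1 to 86.2% against 89.1 to 95.4%). They overlapped in colonic (81.3 to 90.0% against 84.6 to 93.1%) and inguinal nodes (77.5 to 83.9% against 72.5 to 87.0%). In duodenal nodes (81.2 to 82.7% against 78.05 to 92.4%) deficient library 1 lay below every sufficient one. The lambda constant gene Iglc2 did not pass the test in any diet comparison. In duodenal nodes Iglc2 was 114, 110, 188, 204 and 212 CPM under sufficiency and 194, 150, 160, 157 and 141 CPM under deficiency (log2 difference 0.24 ± 0.22, adjusted p = 0.55), ranges that overlap. The fitted value is adjusted for sex, so its sign need not match the printed CPM. These shares were not tested, and the deficient inguinal mean lay within 1 percentage point of the sufficient one.

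Of the 118 Igkv genes, 89 passed edgeR's filter on low counts and were tested. The other 29, of which 17 are pseudogenes, summed to 12.1 to 246.9 counts each and to 0.441% of all Igkv counts. The filter asks for a minimum level in a minimum number of libraries, set from the design and counted over all libraries. A gene abundant in a single group can therefore pass it, and the counts below describe only the genes that passed.

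Between gut-draining and inguinal nodes of sufficient mice, the share of V genes called higher was near that of all genes, and 0 were called lower. Under sufficiency 9 of the 89 Igkv genes were higher in gut-draining nodes and 0 lower, beside 16.7% of all genes called in either direction (9.60% higher, 7.13% lower). The median log2 difference of the 89 was 0.44, and that of all genes -0.01. Igkv1-110 was 144, 63.5, 109, 40.2 and 75.9 CPM in duodenal nodes, 39.2, 28.2, 135, 58.2 and 278 CPM in jejunal, 30.8, 27.1, 143, 112 and 87.0 CPM in ileal, 28.1, 53.0, 139, 57.0 and 47.5 CPM in colonic, and 14.1, 20.9, 23.6, 19.9 and 21.4 CPM in inguinal nodes. All 20 gut-draining libraries lay above all 5 inguinal ones, the only such case among the 9 (log2 difference 1.97 ± 0.49, adjusted p = 0.00379). Igkv4-59 was 6.14, 19.2, 7.62, 10.2 and 7.39 CPM in inguinal nodes and reached 299 CPM in jejunal library 3, and 18 of 20 gut-draining libraries exceeded every inguinal one (3.06 ± 0.60, adjusted p = 0.00023). Igkv10-96 exceeded every inguinal library in 19 of 20 (1.56 ± 0.33, adjusted p = 0.00047).

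The other called genes were Igkv4-86 (2.44 ± 0.65, adjusted p = 0.00612), Igkv10-94 (1.73 ± 0.59, adjusted p = 0.0367), Igkv17-121 (1.21 ± 0.43, adjusted p = 0.0449), Igkv1-117 (1.22 ± 0.44, adjusted p = 0.0492), and Igkv1-88 and Igkv7-33, the last of which stayed under 4.21 CPM in every gut-draining library. With females only, which leaves sufficient numbers 1 and 2, a single Igkv gene was called, and neither Igkv1-110 (1.36, adjusted p = 0.31) nor Igkv10-96 (1.63, adjusted p = 0.13) passed. The count fell to 4 without sufficient number 1, 4 or 5 and to 5 without deficient number 3. Igkv4-59 was called in every alternative. The sufficient gut-draining nodes also held more plasma cell transcripts. The level summed over 12 plasma cell genes, without TMM scaling, was 643 to 1599 CPM in the gut-draining libraries. In the inguinal ones it was 484 to 706 CPM, and its part in the Igkv differences was not tested.

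Under deficiency 28 V genes were called between gut-draining and inguinal nodes. Of the 89, these 28 were higher in gut-draining nodes and 0 lower, beside 5.66% of all genes called in either direction (3.68% higher, 1.98% lower). The median log2 difference was 1.53, that of all genes -0.01, and 83 of the 89 values were positive. Igkv17-121 was 11, 10.6, 9.91, 12.3 and 12 CPM in inguinal nodes. Its gut-draining libraries ran from 22.8 CPM in colonic library 2 to 322 CPM in duodenal library 5 and all 20 lay above the inguinal ones (3.26 ± 0.46, adjusted p = 2.8e-06). Igkv10-96 was 16.8, 30.4, 30.0, 30.5 and 22.9 CPM in inguinal nodes and 32.4 to 245 CPM in gut-draining nodes, again without overlap (2.09 ± 0.33, adjusted p = 2e-05). Igkv17-127 (2.79 ± 0.60, adjusted p = 0.00187), Igkv1-117 (1.84 ± 0.45, adjusted p = 0.00607) and Igkv2-137, which was named only after its values were seen (2.47 ± 0.68, adjusted p = 0.0179), were the other 3 of 5 called genes without overlap. The share of called genes without overlap was not counted over the whole table, here or in any other comparison.

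The largest fold changes in this comparison were less even. Igkv4-61 (4.24 ± 1.05, adjusted p = 0.00732) and Igkv12-98 (3.94 ± 1.12, adjusted p = 0.0252) had inguinal values of at most 2.44 and 4.75 CPM, but gut-draining values from 1.76 to 492 CPM and from 1.38 to 362 CPM. The Igkv12-98 call was lost without deficient number 1 (3.28, adjusted p = 0.078) or 2 (2.97, adjusted p = 0.066). The count of 28 fell to 16, 15 and 17 without deficient numbers 1, 3 and 4, and to 5 without the libraries low in Gm19220, which leaves 2 inguinal libraries. The same fit without those libraries called 6 genes under sufficiency. Igkv10-96, Igkv17-121, Igkv17-127 and Igkv9-120 (2.47 ± 0.57, adjusted p = 0.00377) were called in every alternative. The interaction term between diet and gut-draining against inguinal nodes called 0 of 89 genes by edgeR, beside 0.914% of all genes, with 22 genes at an unadjusted p under 0.05. DESeq2 called 4 and limma-voom 0. Thus the larger count under deficiency is not shown to differ from that under sufficiency gene by gene. The median interaction of the 89 was 0.83.

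Diet was compared within each node next, and in each gut-draining node more V genes were higher under deficiency than lower. In duodenal nodes 14 of 89 were higher and 0 lower, beside 9.99% of all genes called in either direction (6.07% higher, 3.92% lower), with a median of 1.04 against 0.00 for all genes. In jejunal nodes 12 were higher and 0 lower, beside 4.54% of all genes (2.72% higher, 1.81% lower), with a median of 1.5. In ileal nodes 12 were higher and 1 lower, beside 5.65% (2.71% higher, 2.94% lower), with a median of 1.24. In colonic nodes 9 were higher and 1 lower, beside 2.16% (1.21% higher, 0.952% lower), with a median of 1.20. In inguinal nodes edgeR called 0 of 89, beside 0.789% of all genes, with 8 at an unadjusted p under 0.05, and DESeq2 called 1 and limma-voom 0. The inguinal median was 0.44. The 5 comparisons have no library in common, but they share the model's estimates of spread and of sex.

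Of the 40 Igkv genes called for diet in any node, 33 (82.5%) passed in only 1 node, beside 67.4% of the 2737 genes called in any node over the whole table. Differences between nodes were not tested gene by gene. Of the other Igkv genes, 5 passed in 2 nodes, and Igkv17-121 and Igkv9-120 in 3 nodes (duodenal, jejunal and ileal).

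Igkv17-121 (ENSMUSG00000076514, chromosome 6, 68036812 to 68037318, plus strand) was called in all 3 small intestinal nodes with no overlap of the diets. Its duodenal values were 64.6, 6.98, 40.7, 41.1 and 37.2 CPM under sufficiency and 295, 105, 134, 132 and 322 CPM under deficiency. The jejunal values were 10.9, 5.22, 42.5, 27.1 and 28.3 CPM against 260, 66.6, 96.6, 96.7 and 88.6 CPM, and the ileal values 12.6, 7.94, 25.1, 20.6 and 22.8 CPM against 90.2, 31.9, 47.7, 238 and 71.4 CPM. In each node every deficient library exceeded every sufficient one, and Igkv17-121 rose by 2.73 ± 0.51 (adjusted p = 0.00033), 2.91 ± 0.55 (0.00069) and 2.87 ± 0.54 (0.00047) on the log2 scale. In colonic nodes it was 29.5, 33.2, 29.4, 38.8 and 24.2 CPM against 99.4, 22.8, 80.1, 39.9 and 49.4 CPM, which overlap (1.26 ± 0.50, adjusted p = 0.218). In inguinal nodes it was 10.2, 10.3, 11.9, 12 and 11.2 CPM against 11, 10.6, 9.91, 12.3 and 12 CPM, nearly the same value in all 10 libraries (0.39 ± 0.56, adjusted p = 0.848). The fitted value is adjusted for sex, and these CPM show almost no difference. The interaction of diet with gut-draining against inguinal nodes was 2.05 ± 0.58 and did not pass (adjusted p = 0.0761). With females only, the duodenal and ileal calls were lost (2.45, adjusted p = 0.08, and 3.21, adjusted p = 0.05 after rounding), while the jejunal call held in every alternative.

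Igkv9-120 (ENSMUSG00000094872, chromosome 6, 68049983 to 68050456, plus strand) lies downstream of Igkv17-121 on the same strand. It was 6.12, 6.48, 15.6, 8.52 and 7.82 CPM in sufficient and 33.3, 29.4, 18.5, 39.1 and 320 CPM in deficient duodenal nodes. In jejunal nodes it was 7.00, 3.81, 14.0, 11.2 and 17.4 CPM against 145, 24.8, 32.1, 88.8 and 178 CPM, and in ileal nodes 8.21, 9.30, 12.3, 17.5 and 17.0 CPM against 32.8, 27.3, 21.3, 52.2 and 203 CPM. The diets did not overlap in these nodes, and the highest deficient value came from number 5 in each. Igkv9-120 rose by 3.66 ± 0.74 (adjusted p = 0.00081), 3.52 ± 0.74 (0.0024) and 2.75 ± 0.71 (0.0137). The colonic and inguinal differences did not pass (1.63, adjusted p = 0.231, and 0.84, adjusted p = 0.719). With females only all 3 calls were lost (adjusted p = 0.087, 0.11 and 0.25), and the ileal one also without sufficient number 2 (2.59, adjusted p = 0.11) and by limma-voom (2.19, adjusted p = 0.11).

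**Figure D2:**
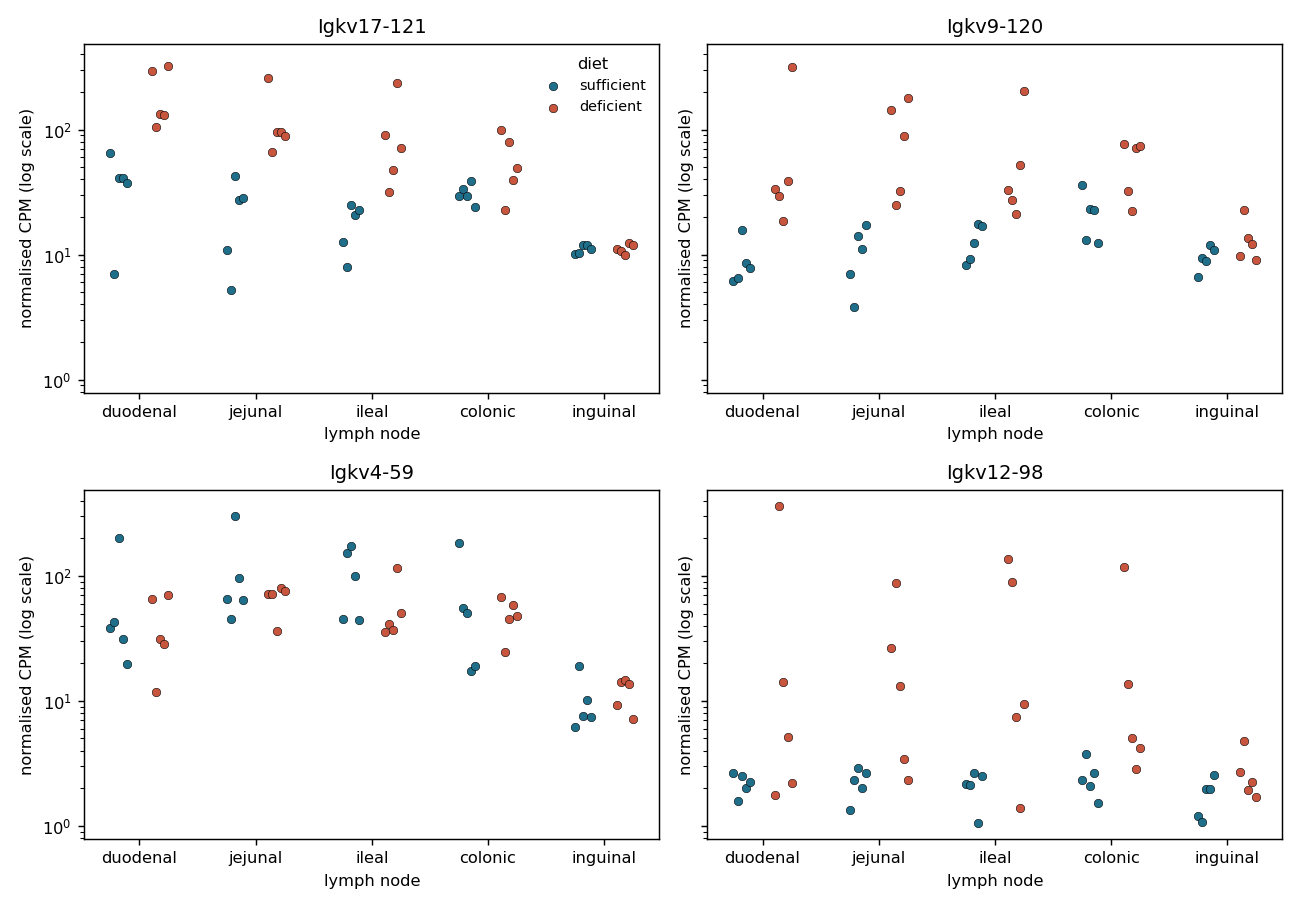
CPM of Igkv17-121, Igkv9-120, Igkv4-59 and Igkv12-98 in every library, on a log axis, by node and diet. Deficient libraries lie above sufficient ones for Igkv17-121 and Igkv9-120 in duodenal, jejunal and ileal nodes, 18 of 20 sufficient gut-draining libraries lie above every sufficient inguinal one for Igkv4-59, and Igkv12-98 is high in a few deficient libraries.

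Many called diet differences came largely from 1 library. Of all called Igkv genes, 10 of 14 in duodenal, 5 of 12 in jejunal, 10 of 13 in ileal and 9 of 10 in colonic nodes had at least 50% of the summed CPM of the higher diet in a single library. Over all called genes of the table these shares were 2.83, 2.04, 1.83 and 5.28%. Igkv9-120 was among them, with 72.7% of its deficient duodenal and 60.3% of its deficient ileal sum in library 5. Igkv12-98 was 1.57 to 2.67 CPM in sufficient duodenal nodes and 1.77, 362, 14.0, 5.16 and 2.22 CPM in deficient ones. Its fitted difference of 5.22 ± 1.43 (adjusted p = 0.0139) became 1.47 (adjusted p = 0.45) without deficient number 2. Igkv6-32 was 4.56 to 8.70 CPM against 10.9, 6.78, 12.9, 406 and 5.78 CPM, and its 3.85 ± 0.87 (adjusted p = 0.00273) became 0.59 (adjusted p = 0.52) without deficient number 4. Igkv6-14 was 0.829 to 1.88 CPM against 95.1, 1.39, 3.11, 3.49 and 10.5 CPM (4.38 ± 0.99, adjusted p = 0.00268), and was not called without deficient number 1 (2.1, adjusted p = 0.087). In each of these, 4 of the 5 deficient libraries lay far below the highest one.

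Igkv3-10 in duodenal nodes was 4.39 to 7.41 CPM under sufficiency and 5.56, 14.1, 95.3, 242 and 8.78 CPM under deficiency (3.81 ± 0.88, adjusted p = 0.00334). It was not called without the libraries rich in pancreatic transcripts, which include deficient duodenal 2, 3 and 4 (0.61, adjusted p = 0.83). Igkv5-48 was 5.31, 2.43, 6.06, 13.2 and 4.05 CPM against 17.2, 23.3, 46.5, 5.35 and 75.3 CPM, so that 4 deficient libraries exceeded all sufficient ones. Igkv5-48 rose by 2.95 ± 0.61 (adjusted p = 0.00102) and was called in every alternative. Without TMM scaling, pancreatic genes summed to 633 to 228500 CPM in sufficient and 63.9 to 208900 CPM in deficient duodenal libraries. Of the 14, 0 were called for diet. The duodenal count of 14 became 8 without deficient number 4 or without sufficient number 2, and 5 without the pancreas-rich libraries.

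In jejunal nodes Igkv3-4 was 4.69 to 7.86 CPM under sufficiency and 418, 24.9, 39.5, 7.14 and 7.81 CPM under deficiency (4.07 ± 0.96, adjusted p = 0.00779), and was not called without deficient number 1 (1.74, adjusted p = 0.23). Igkv5-45 (3.63 ± 1.00, adjusted p = 0.0259) and Igkv4-58 (3.14 ± 0.91, adjusted p = 0.0356) likewise depended on deficient numbers 2 (1.56, adjusted p = 0.28) and 3 (1.5, adjusted p = 0.32). Igkv14-111, singled out after its values were seen because its diets did not overlap, was 17.3, 10.1, 13.5, 12.8 and 13.5 CPM against 62.2, 41.5, 46.8, 69.2 and 35.3 CPM (1.90 ± 0.42, adjusted p = 0.00381). Its deficient values stayed within a 2-fold range. The jejunal count of 12 became 6 without deficient number 1, 20 without deficient number 5, 6 without sufficient number 1 and 4 without sufficient number 2.

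In ileal nodes Igkv8-34 was at most 0.400 CPM under sufficiency and 0.338, 0.681, 137, 4.26 and 0.103 CPM under deficiency (8.29 ± 1.85, adjusted p = 0.00339), and was not called without deficient number 3 (3.47, adjusted p = 0.12). Igkv4-57-1 was 1.43 to 6.28 CPM against 4.82, 10.1, 5.34, 261 and 30.3 CPM (4.29 ± 0.91, adjusted p = 0.00192), and was not called without deficient number 4 (2.01, adjusted p = 0.057). Igkv4-50 was 0.267 to 2.43 CPM against 29.8, 54.2, 125, 5.96 and 1.14 CPM (4.78 ± 0.92, adjusted p = 0.00059), high in 3 deficient libraries. Its call was lost without the libraries low in Gm19220 (2.98, adjusted p = 0.055), among which are ileal 2 and 3. Igkv17-127, the near copy of Igkv17-121, was 12.8 to 24.3 CPM against 21, 27.5, 28.5, 181 and 265 CPM (2.31 ± 0.69, adjusted p = 0.0368), and was not called without deficient number 5 (1.61, adjusted p = 0.15). Igkv16-104 (2.99 ± 0.76, adjusted p = 0.0113), singled out after its values were seen, was the other ileal gene without overlap, beside Igkv17-121 and Igkv9-120. The ileal count of 13 became 5 without sufficient number 2.

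In colonic nodes Igkv8-21 was 6.65, 5.01, 8.09, 6.12 and 4.66 CPM under sufficiency and 95.8, 9.56, 18.2, 30.7 and 28.9 CPM under deficiency, without overlap (2.87 ± 0.56, adjusted p = 0.00201). Igkv4-63 was 0.801 to 4.93 CPM against 162, 2.47, 13.4, 61.8 and 1.51 CPM (5.19 ± 1.07, adjusted p = 0.00369). Igkv4-90 was 0.458 to 2.60 CPM against 0.786, 1.47, 0.640, 214 and 0.894 CPM (5.14 ± 1.37, adjusted p = 0.035), a single high library. Without deficient number 4 its value turned to -0.37, and Igkv4-61 (4.56 ± 1.12, adjusted p = 0.0188) and Igkv17-127 (2.59 ± 0.71, adjusted p = 0.0404) were no longer called (2.98, adjusted p = 0.065, and 1.13, adjusted p = 0.41). Igkv4-77, named after its values were seen, was the other colonic gene without overlap (2.05 ± 0.50, adjusted p = 0.0166). The colonic count of 10 became 3 without deficient number 4, and 6, 4, 4 and 5 without sufficient numbers 1, 2, 3 and 5.

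The only Igkv gene called lower under deficiency, Igkv2-116, was a rare one, named here after its values were seen. It was 0.131, 1.69, 0.511, 0 and 6.08 CPM in sufficient ileal nodes and 0, 0, 0.126, 0 and 0 CPM in deficient ones (-5.46 ± 1.57, adjusted p = 0.0271). In colonic nodes it was 0.291, 10.9, 0.878, 0.139 and 1.51 CPM against 0, 0, 0.223, 0 and 0 CPM (-5.35 ± 1.35, adjusted p = 0.0216). With nearly all deficient libraries at 0, the fitted size depends on the prior count and bounds nothing. Of the alternatives that gave a value, the ileal call was lost in 10 of 17 and the colonic one in 9 of 18. Both were lost with no filter (adjusted p = 0.082 and 0.067), by limma-voom (0.18 and 0.2) and without sufficient number 2 (-3.9, adjusted p = 0.26, and -2.02, adjusted p = 0.69). Neither node had a value without sufficient number 5. The ileal one had none by DESeq2, which called 0 Igkv genes lower there. With females only, which compares 2 sufficient with 5 deficient libraries per node, the counts of called Igkv genes were 2 in duodenal, 1 in jejunal, 0 in ileal and 1 in colonic nodes, the last being Igkv2-116, lower. With no male deficient library, the estimate for sex came from sufficient mice only.

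Several of the most used genes were not called for diet in any node. Igkv4-59 in duodenal nodes was 38.1, 42.6, 199, 31 and 19.7 CPM under sufficiency and 64.8, 11.7, 31.1, 28.7 and 70.9 CPM under deficiency, with overlapping ranges. In jejunal nodes it was 65.0, 44.9, 299, 96.8 and 64.1 CPM against 71.4, 71.3, 36.3, 79.9 and 75.4 CPM, again overlapping. Igkv10-96 and Igkv1-110 were not called either. A p that misses the threshold does not show equal levels.

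A few V genes were called lower in small intestinal nodes (the mean of duodenal, jejunal and ileal) than in colonic nodes. Under sufficiency the share called in either direction was near that of all genes. Of 89, 3 were lower and 0 higher, beside 3.69% of all genes called in either direction (2.58% higher, 1.10% lower). The median was -0.54. Igkv4-53 was 4.72, 72.0, 14.4, 99.6 and 59.5 CPM in colonic nodes (-2.67 ± 0.56, adjusted p = 0.00198), high in 3 of 5. That call was lost without sufficient number 2 (-2.03, adjusted p = 0.09) or 4 (-2.36, adjusted p = 0.056). Igkv3-7 was 3.03, 5.18, 2.29, 80.7 and 4.97 CPM in colonic nodes (-2.0 ± 0.51, adjusted p = 0.0135), a difference of 0.01 without sufficient number 4. Igkv1-117 (-1.52 ± 0.39, adjusted p = 0.0144) lost its call without sufficient number 1 (-0.78, adjusted p = 0.43). The count of 3 became 1 without sufficient number 2 or 4, and 5, 7 and 5 without deficient numbers 3, 4 and 5, which enter only through the shared estimate of spread.

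Under deficiency 8 of 89 were lower in small intestinal than in colonic nodes and 0 higher, beside 1.75% of all genes (1.27% higher, 0.479% lower), with a median of -0.38. Igkv8-21 (-2.06 ± 0.36, adjusted p = 0.00036) was called in every alternative. Igkv4-90 (-4.49 ± 0.80, adjusted p = 0.00048) and Igkv4-63 (-3.05 ± 0.59, adjusted p = 0.00136) lost their calls without deficient number 4 (-0.88, adjusted p = 0.54) and number 1 (-1.62, adjusted p = 0.36). The count of 8 became 3 without deficient number 4.

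Duodenal and ileal nodes did not differ in any Igkv gene under sufficiency by edgeR (0 of 89, beside 7.93% of all genes, with 7 at an unadjusted p under 0.05, 1 by DESeq2 and 0 by limma-voom). Under deficiency 3 were higher and 6 lower in duodenal nodes, beside 5.61% of all genes (2.88% higher, 2.72% lower), with a median of -0.24. Igkv6-32 (2.82 ± 0.74, adjusted p = 0.0135), Igkv3-10 (3.29 ± 0.79, adjusted p = 0.0064) and Igkv3-1 (2.99 ± 0.82, adjusted p = 0.0197) were higher. Igkv8-34 (-5.28 ± 1.34, adjusted p = 0.0101), Igkv4-57-1 (-3.97 ± 0.81, adjusted p = 0.00102), Igkv4-91 (-2.94 ± 0.85, adjusted p = 0.0289) and Igkv4-50 (-2.84 ± 0.74, adjusted p = 0.0121) were lower. All 7 calls were lost when 1 number was left out. Without deficient number 4 the values of Igkv6-32, Igkv3-10, Igkv3-1 and Igkv4-57-1 were -0.61, 2.16, 0.3 and -1.61. Igkv4-91 was -1.09 without number 1, Igkv8-34 -2.45 and Igkv4-50 -2.24 without number 3. The count of 9 became 3 without deficient number 4.

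Use of V genes within each library was described next as each gene's share of that library's Igkv counts. These are shares of counts, not of molecules per length, and the fitted values above are differences of levels. Averaged over libraries, 37 of 118 genes took at least 1% each and the 12 most used took 45.3%. The 12 were Igkv1-110 (6.29%), Igkv10-96 (5.96%), Igkv1-117 (4.99%), Igkv4-59 (4.90%), Igkv17-121 (3.89%), Igkv1-135 (3.44%), Igkv17-127 (3.05%), Igkv5-43 (2.98%), Igkv6-15 (2.62%), Igkv9-120 (2.54%), Igkv5-39 (2.41%) and Igkv19-93 (2.22%). V pseudogenes took 0.726% in sufficient and 0.717% in deficient inguinal nodes, between 0.467 and 0.621% in sufficient gut-draining nodes and between 0.232 and 0.337% in deficient gut-draining nodes, as group means.

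The 118 genes fall into 20 families by name, and family 4 with 32 members had the highest mean use (18.6%). Family 1 followed with 10 members and 15.7%, family 6 with 9 and 9.68%, family 3 with 10 and 7.98%, family 10 with 3 and 7.20%, family 8 with 10 and 7.11%, family 17 with 3 and 6.94%, and family 5 with 5 and 6.92%. Family 6 took a mean of 14.0% in sufficient inguinal nodes and 7.11 to 9.82% in sufficient gut-draining nodes. Under deficiency it took 11.8 ± 2.98% in inguinal nodes and 6.61 to 10.7% in gut-draining ones, of which duodenal (10.7 ± 7.60%) and colonic nodes (10.2%) lay near the inguinal mean. Family 10 took 7.50 to 9.87% in sufficient gut-draining and 5.28% in sufficient inguinal nodes. Under deficiency it took 4.92% in duodenal, 7.38% in jejunal, 6.91% in ileal, 7.33% in colonic and 4.95% in inguinal nodes, so duodenal and inguinal nodes were alike in this mean.

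Family 17, which is mainly Igkv17-121 and Igkv17-127, took a larger part of the Igkv counts in deficient small intestinal nodes. In jejunal nodes it took 4.6, 4.15, 5.23, 3.27 and 3.20% under sufficiency and 8.87, 5.89, 7.80, 13.1 and 10.2% under deficiency, without overlap. In duodenal nodes it took 10.3, 6.06, 6.01, 6.52 and 6.94% against 21, 10.9, 15.7, 8.26 and 21.5%, and deficient library 4 fell inside the sufficient range. Group means ± SD were 7.16 ± 1.78 against 15.5 ± 5.92% in duodenal, 4.09 ± 0.87 against 9.16 ± 2.71% in jejunal, 4.12 ± 0.965 against 9.41 ± 7.05% in ileal, 4.16 ± 1.14 against 7.02 ± 4.83% in colonic and 4.94 ± 0.724 against 3.90 ± 1.06% in inguinal nodes. Deficient ileal values were high in libraries 4 and 5 only (15.2 and 18.7%), and the colonic value in library 4 (15.0%).

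Family 9, with Igkv9-120 as its main gene, took 1.36% of sufficient and 5.91 ± 8.21% of deficient duodenal Igkv counts, the latter from 2.45, 2.23, 1.39, 2.89 and 20.6%. In deficient jejunal nodes it took 4.43, 2.10, 2.16, 4.95 and 16.8%, all above the sufficient maximum of 2.04%. Number 5 was the highest in both nodes. Family 1 moved the other way in its group means, from 19.9, 19.3, 17.9 and 18.9% in sufficient duodenal, jejunal, ileal and colonic nodes to 12.1, 13.2, 11.6 and 15.9% in deficient ones, and from 13.0 to 15.0% in inguinal nodes. Family 5 took means of 7.46 to 9.58% in sufficient and 3.99 to 7.01% in deficient gut-draining nodes, and inguinal nodes showed the same direction (9.45 and 4.38%). Shares within a library sum to 100%, so a larger share of one family lowers the others, and no test was made on them.

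**Figure D3:**
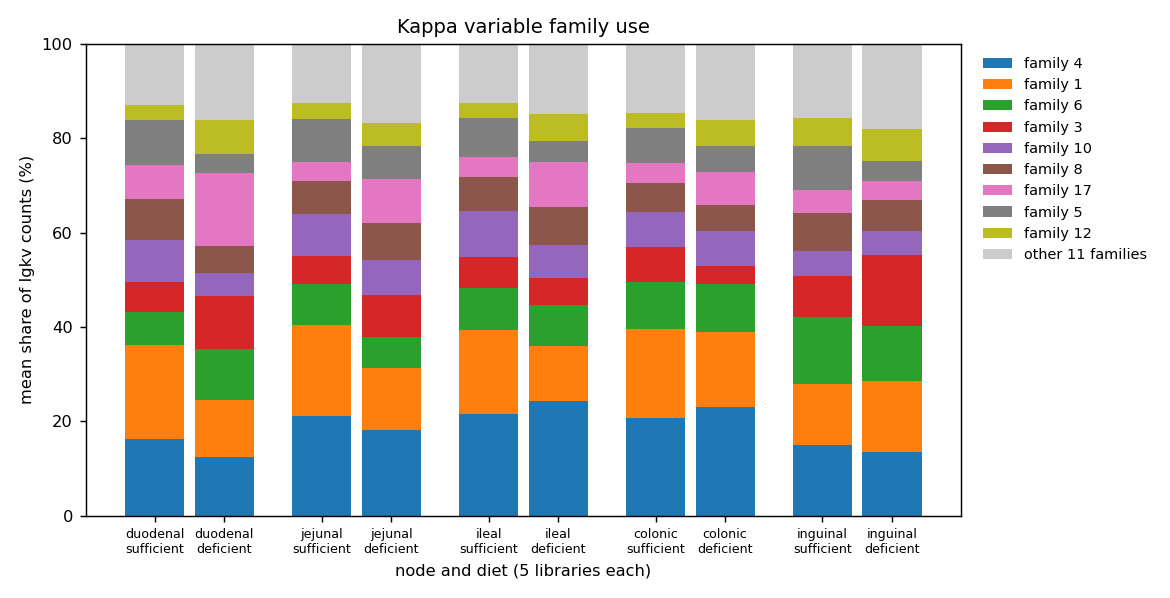
Mean share of Igkv counts, in percent, taken by the 9 largest families and by the other 11 together, stacked for each node and diet (5 libraries each). The family 17 segment is 15.5% in deficient duodenal nodes and 3.90% in deficient inguinal nodes, and the family 1 segment is smaller in each deficient gut-draining node than in its sufficient counterpart.

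How evenly V genes were used was described by the effective number of genes, which is the number of equally used genes that would give the same sum of squared shares. Sufficient inguinal libraries had 41.8, 18.5, 42.4, 44.0 and 42.0 effective genes and deficient inguinal libraries 47.4, 13.7, 25.1, 23.6 and 44.3. Of the 10 inguinal libraries 6 exceeded 40, whereas the 40 gut-draining libraries ran from 10.5 to 33.5 and none exceeded 40. Under 20 effective genes were found in 16 of 40 gut-draining and 2 of 10 inguinal libraries.

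Diet moved this measure little beside its spread. The means ± SD under sufficiency were 20.4 ± 5.39 in duodenal, 20.8 ± 6.47 in jejunal, 22.4 ± 8.35 in ileal, 24.2 ± 6.33 in colonic and 37.7 ± 10.8 in inguinal nodes. Under deficiency they were 15.8 ± 5.18, 24.1 ± 5.48, 21.9 ± 5.60, 23.4 ± 4.02 and 30.8 ± 14.5, and the diets overlapped in every node. Thinning each library to 2958 Igkv counts left the means at 20.3, 20.5, 22.1, 24.2 and 37.7 under sufficiency and 15.7, 23.6, 21.6, 22.6 and 31 under deficiency, close to the values from all counts. The 5 most used genes of a library took on average 41.5, 39.6, 37.9, 37.6 and 26.3% under sufficiency and 46.5, 36.8, 39.0, 37.3 and 31.7% under deficiency, in the same order of nodes.

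**Figure D4:**
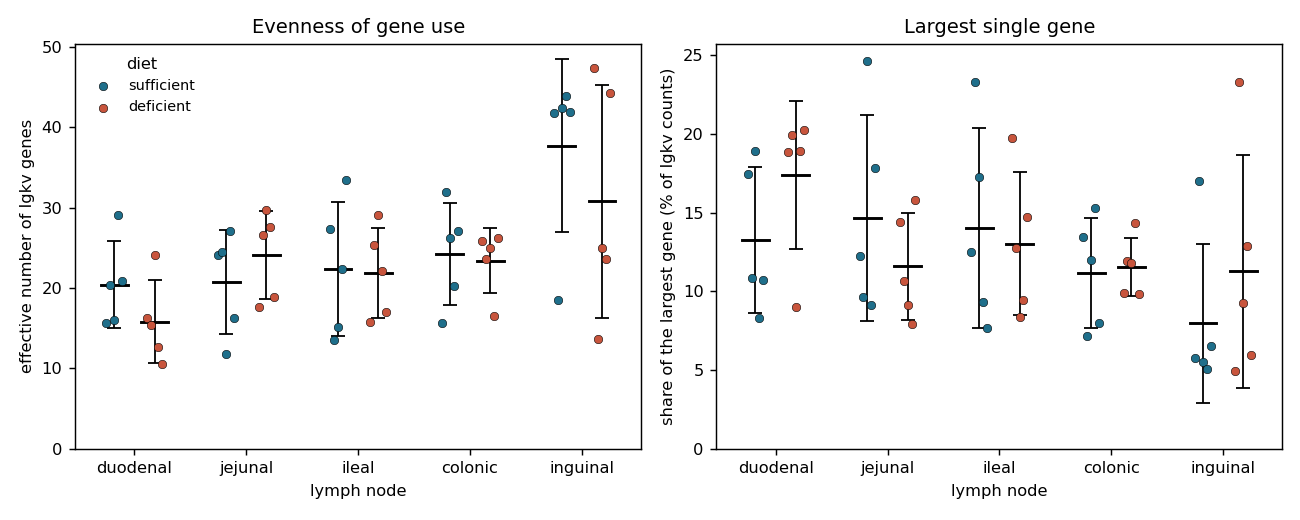
Effective number of Igkv genes and percent of Igkv counts in the most used gene, by node and diet. Points are libraries and bars the mean and SD of 5, and 6 of 10 inguinal libraries lie above every gut-draining library in effective number.

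The most used gene of a library differed widely between libraries. Over the 50 libraries 20 different genes came first. Igkv1-110 led in 9 libraries, Igkv10-96 in 7 and Igkv1-117 in 6. The leading gene took at least 10% of Igkv counts in 26 of 40 gut-draining and 3 of 10 inguinal libraries. In sufficient duodenal libraries 1 to 5 the leaders were Igkv1-110 (17.4%), Igkv5-39 (10.9%), Igkv4-59 (18.9%), Igkv10-96 (8.32%) and Igkv5-39 (10.7%). In deficient duodenal libraries they were Igkv17-121 (18.9%), Igkv12-98 (19.9%), Igkv1-110 (9.0%), Igkv6-32 (18.9%) and Igkv17-121 (20.3%, with Igkv9-120 at 20.1%). So 4 different genes led in each diet, and Igkv17-121 led only in deficient libraries, all of them duodenal.

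The sufficient jejunal leaders were Igkv10-96 (12.2%), Igkv4-59 (9.63%), Igkv4-59 (24.6%), Igkv10-96 (9.11%) and Igkv1-110 (17.8%), and the deficient ones Igkv5-39 (14.4%), Igkv8-24 (10.7%), Igkv10-96 (9.11%), Igkv17-127 (7.95%) and Igkv9-120 (15.8%). The sufficient ileal leaders were Igkv10-96 (12.5%), Igkv4-59 (23.3%), Igkv4-59 (17.2%), Igkv10-96 (9.32%) and Igkv1-110 (7.69%), and the deficient ones Igkv4-91 (19.8%), Igkv10-96 (12.8%), Igkv1-110 (8.36%), Igkv4-57-1 (9.47%) and Igkv17-127 (14.8%). In both nodes 3 genes led under sufficiency and 5 under deficiency.

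The sufficient colonic leaders were Igkv1-135 (13.4%), Igkv5-43 (7.18%), Igkv1-110 (11.99%), Igkv1-117 (15.3%) and Igkv1-117 (8.00%), and the deficient ones Igkv1-117 (9.89%), Igkv1-110 (11.9%), Igkv1-110 (11.8%), Igkv4-61 (14.3%) and Igkv1-117 (9.83%). In inguinal nodes the leaders were Igkv4-57 (5.75%), Igkv5-43 (17.0%), Igkv1-117 (5.52%), Igkv1-117 (5.09%) and Igkv5-39 (6.53%) under sufficiency and Igkv6-15 (4.93%), Igkv3-4 (23.3%), Igkv19-93 (9.27%), Igkv1-110 (12.9%) and Igkv1-135 (5.96%) under deficiency. A single inguinal library per diet, both numbered 2, had a leader above 15%. Igkv3-4 in deficient inguinal 2 stood at 215 CPM, against 7.66 to 51.3 CPM in the other deficient inguinal libraries.

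**Figure D5:**
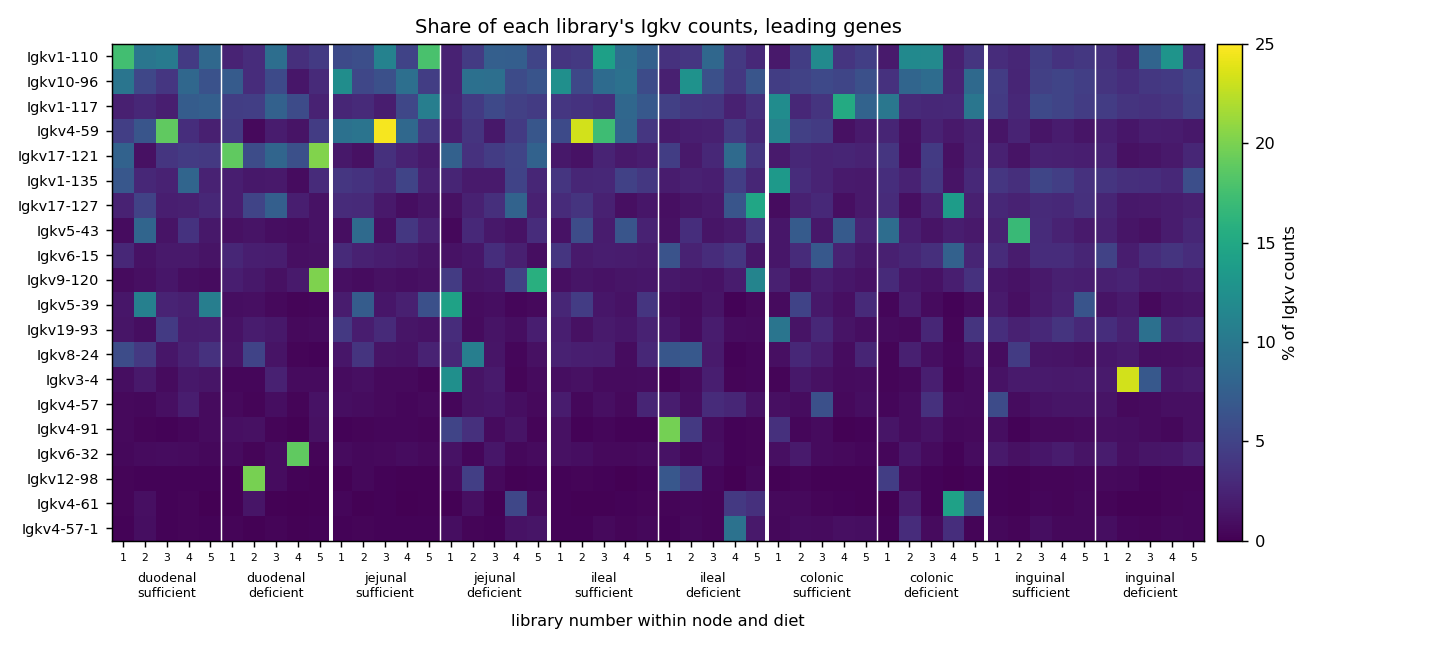
Share of each library's Igkv counts, in percent, by node and diet. Lines of the map are the 20 genes that came first in at least 1 library. The lines are in order of mean use, and columns are the 50 libraries. This choice of lines favours genes that are high in single libraries. High shares are bright and low ones dark. Bright cells are scattered. A gene near 20% in 1 library is often under 5% in the next library of the same node and diet.

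Other genes of the antibody-secreting lineage were read from lists. Over all genes, 16.7% were called in either direction between gut-draining and inguinal nodes under sufficiency and 5.66% under deficiency. For diet, 9.99% were called in duodenal, 4.54% in jejunal, 5.65% in ileal, 2.16% in colonic and 0.789% in inguinal nodes. The counts from lists stand beside these shares, and in lists this short a single called gene can lie near them. Of 12 plasma cell genes (among them Jchain, which links IgA and IgM units, the secretory chaperone Mzb1 and the factor Xbp1), 6 were higher in gut-draining than in inguinal nodes under sufficiency and 9 under deficiency, and 0 lower, with medians of 0.37 and 0.71. For diet, 1 was higher in duodenal, 2 in jejunal, 4 in ileal, 5 in colonic and 0 in inguinal nodes (medians 0.40, 0.46, 0.59, 0.63 and 0.27). Mzb1 rose by 0.96 ± 0.18 in duodenal nodes (adjusted p = 0.00032), 0.93 in jejunal (0.00106), 0.64 in ileal (0.0246) and 0.89 in colonic nodes (0.00258), with 0.34 in inguinal nodes (adjusted p = 0.48). Jchain passed for gut-draining against inguinal nodes (2.58 ± 0.41 and 2.77 ± 0.41, adjusted p = 1.2e-05 and 6.8e-06) and for diet in no node. The list's summed level, without TMM scaling, was 982, 1076, 1113, 1189 and 557 CPM in sufficient duodenal, jejunal, ileal, colonic and inguinal nodes. In deficient nodes it was 1223, 1486, 1608, 1688 and 666 CPM in the same order. Its part in the Igkv shares was not tested.

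Of 10 B cell genes, all 10 were lower in the gut-draining nodes than in the inguinal ones under sufficiency and 7 under deficiency (medians -0.34 and -0.35), the opposite direction to the Igkv genes. For diet 5 were higher in duodenal nodes, 2 higher in jejunal and 2 lower in ileal nodes, and 0 passed in colonic and inguinal nodes. Their summed level, without TMM scaling, was 2410 CPM in sufficient and 3027 CPM in deficient duodenal nodes. In ileal nodes it was 3119 and 3128 CPM. Of 7 heavy chain constant genes, under either diet the gut-draining nodes held more of 4 and less of 1 than the inguinal nodes. Under deficiency 4 were higher in duodenal, 2 in jejunal, 2 in ileal and 2 in colonic nodes and 0 in inguinal nodes. Ighg2b, an IgG constant gene, rose by 3.39 ± 0.74 in duodenal (adjusted p = 0.00182), 3.07 in jejunal (0.0106), 3.62 in ileal (0.00159) and 2.69 in colonic nodes (0.0261), with 2.52 in inguinal nodes (adjusted p = 0.0636). Igha, the IgA constant gene, was higher in gut-draining than inguinal nodes by 7.00 and 5.96 under the 2 diets.

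Of 9 tested genes in the list of light chain genes other than Igkv, which includes Igkc, 4 were higher in gut-draining than in inguinal nodes under either diet (Igkc, Iglc1, Iglv1 and Iglv2). For diet the counts were 2 in duodenal, 2 in jejunal, 1 in ileal, 1 in colonic and 0 in inguinal nodes, and Iglv3 was the only gene beside Igkc (0.68, adjusted p = 0.0348 in duodenal and 0.89, adjusted p = 0.0088 in jejunal nodes). The J genes Igkj2 and Igkj5 were listed at 0 in every library. Of 8 germinal centre genes, 1 was lower under deficiency in ileal nodes and 0 passed in the other nodes, while 2 were higher in gut-draining than inguinal nodes under sufficiency. Of 7 genes for octamer and kappa enhancer factors, which drive kappa transcription, 4 were higher under deficiency in duodenal and 2 in jejunal nodes and 1 lower in ileal nodes. Of 5 genes of recombination and B cell precursors, 4 were in the count table. Only 1 passed the filter on low counts, and it was called for diet in no node.

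Markers of other cells gave the following counts, which stand beside the same shares over all genes. Between duodenal and ileal nodes those shares were 7.93% under sufficiency and 5.61% under deficiency, and in the interaction 0.914%. Of 8 T cell genes, 1 was higher under deficiency in duodenal, 1 in jejunal, 5 in ileal and 1 in colonic nodes, and 1 was lower in inguinal nodes. Also, 5 were lower in gut-draining than inguinal nodes and 6 higher in duodenal than ileal nodes under sufficiency, 1 was higher in gut-draining nodes under deficiency, and 4 passed in the interaction, all positive. Of the 14 pancreatic genes, gut-draining nodes held more of 12 than inguinal nodes under sufficiency, all 14 were higher in duodenal than ileal nodes under both diets, and 0 were called for diet. Of 8 adipocyte genes 4 were higher in gut-draining than inguinal nodes under sufficiency, and 0 in the diet comparisons. Of 6 stromal genes 3 were higher and 3 lower in gut-draining than inguinal nodes under sufficiency, and 1 was lower under deficiency in each of the duodenal, jejunal and ileal nodes. The part of these cells in the Igkv results was not tested.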

How the data were processed

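RNA from lymph nodes was extracted with TRIzol and sequenced from poly(A)-selected libraries (NEBNext), per the labels' protocols. The authors deposited a table of estimated counts per gene. Per the submitters' processing notes, the tools were kallisto, edgeR and limma, and both mm10 and GRCm39 are named as builds. What each was used for, its version and the strand setting were not given in the sources used here. The 25 columns named "VitA 3rd" were taken as the deficient group because the other 25 are named control. The meaning of "3rd" is not given. The 379 entries with no gene name took part like any other gene.

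Estimated counts were rounded to whole numbers. The 10 groups of node and diet and a term for male sex were fitted together with edgeR 4.0.16 (filterByExpr, TMM, robust quasi-likelihood test) in R 4.3.3, and 12 comparisons were adjusted by Benjamini-Hochberg over 18387 genes at 0.05. Standard errors are approximate, from the log2 difference and its F statistic. CPM are TMM-normalised. DESeq2 1.42.0 and limma 3.58.1 (voom) were alternatives. Others were other size factors, filters, no sex term, females only, a replicate block, and leaving out each numbered set of libraries, the libraries low in Gm19220 (under 3%) or those rich in pancreatic transcripts (over 1%). Identity and unique stretches of 31 bases used GENCODE M21 transcripts, Python 3.11.15 and edlib 1.3.9.post1. The fit was tested on simulated counts.

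Named genes were the 12 Igkv genes with the highest mean use, every gene leading a library, per comparison and direction up to 4 called genes of at least 5 CPM by size of change, and the genes of the lists. Members and lists were chosen with earlier results of these data known.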

Additional observations from a re-analysis of the deposited data

Results flagged for a closer look

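In groups of 5 libraries, the highest or lowest library stood apart from the other 4 by Dixon's 95% criterion in 9 of 60 combinations of the 10 groups with a measure. Chance flags about 1 in 20 separate groups, but these measures are related, so the 9 are not separate and cannot be read against that share. Sufficient inguinal 2 stood apart in 4 measures. It had the highest Igkv share of its group (0.0762%, 95% Wilson interval 0.0743 to 0.0782%), the fewest effective genes (18.5), the largest leading gene (Igkv5-43 at 17.0% of Igkv counts) and the largest share in its 5 most used genes (40.6%). Deficient colonic 4 had the fewest effective genes (16.5) and the largest share in its 5 most used genes (46.6%) of its group. Deficient ileal 4 had the highest Igkv share of its group (0.274%, interval 0.270 to 0.278%). In deficient duodenal 3 the leading gene, Igkv1-110, took the smallest share of its group's leaders (9.0%, interval 8.53 to 9.50%). Igkc took the smallest share of light chain constant counts of its group in deficient duodenal 1 (78.1%).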

How the results depend on the processing

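The number of called Igkv genes depended on the tool and on few libraries, and the causes of the changes below were not tested. For gut-draining against inguinal nodes under sufficiency, no filter gave 4, limma-voom 3 and females only 1 in place of 9. Under deficiency DESeq2 gave 45, limma-voom 10, females only 18 and leaving out the libraries low in Gm19220 5 in place of 28. For small intestinal against colonic nodes, limma-voom gave 0 and leaving out the low Gm19220 libraries 5 in place of 3 under sufficiency, and limma-voom 2 in place of 8 under deficiency. For duodenal against ileal nodes, DESeq2 gave 1 in place of 0 under sufficiency, and limma-voom 1, females only 5 and leaving out the pancreas-rich libraries 1 in place of 9 under deficiency. For diet in duodenal nodes DESeq2 gave 23, limma-voom 4, females only 2 and leaving out the pancreas-rich libraries 5 in place of 14. In jejunal nodes no filter gave 4, DESeq2 24, limma-voom 4, females only 1 and leaving out the pancreas-rich libraries 7 in place of 12. In ileal nodes DESeq2 gave 21, limma-voom 3 and females only 0 in place of 13. In colonic nodes no filter gave 6, DESeq2 18, limma-voom 1 and females only 1 (lower, where the 10 were 9 higher and 1 lower) in place of 10. In inguinal nodes DESeq2 gave 1 in place of 0. The interaction gave 4 by DESeq2, 1 with the replicate block and 1 without the pancreas-rich libraries in place of 0.

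Leaving out each numbered set of libraries in turn gave 4 to 9 for gut-draining against inguinal nodes under sufficiency and 15 to 27 under deficiency, 1 to 7 and 3 to 10 for small intestinal against colonic nodes, and 3 to 10 for duodenal against ileal nodes under deficiency. For diet it gave 8 to 18 in duodenal, 4 to 20 in jejunal, 5 to 14 in ileal, 3 to 15 in colonic and 0 to 1 in inguinal nodes (1 without deficient number 1). Of the summed Igkv shares, 3 differences moved by more than the spread of libraries. The difference of small intestinal from colonic nodes under deficiency became -0.104 percentage points and the diet difference in colonic nodes 0.17 without the low Gm19220 libraries, and the diet difference in jejunal nodes 0.15 with females only.

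Without the pancreas-rich libraries Igkv6-32 and Igkv3-10 in duodenal against ileal nodes under deficiency turned to -0.57 and -0.05, and Igkv12-98 and Igkv12-46 for diet in duodenal nodes to -0.21 and -0.17. Leaving out each number in turn gave -0.61 (without deficient number 4) to 3.48 for Igkv6-32 in the first comparison, -0.37 (without deficient number 4) to 5.46 for Igkv4-90 for diet in colonic nodes, and -2.49 to 0.01 (without sufficient number 4) for Igkv3-7 in small intestinal against colonic nodes under sufficiency. Of 106 single-gene results, 8 kept direction and call in every alternative that gave a value. Other size factors lost none of the 106, and DESeq2 lost none of the 103 for which it gave an adjusted p. Libraries of the same diet and number were not paired by the labels. The correlation of their deviations was over 0.1 in 59 of 100 pairs (median 0.1335, range -0.198 to 0.47), and 38 of 50 libraries correlated best with their own number, a hint from the data and not the design. With the number as replicate block the interaction count was 1, and 49 of 57 single-gene results kept their call. Depth limited the rare genes: the 29 untested members together held 0.441% of Igkv counts.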

Other observations

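How alike the V gene mixes of 2 libraries were was read as the sum, over genes, of the smaller of their 2 shares, which is 100% for identical mixes. Sufficient inguinal libraries overlapped by a median of 83.0% (10 pairs) and deficient inguinal libraries by 68.3% (10 pairs). Gut-draining libraries of sufficient mice overlapped by a median of 72.4% when they carried the same number (30 pairs, 51.8 to 83.6%) and 63.7% when they did not (160 pairs). For deficient mice the medians were 58.7% (30 pairs, 32.1 to 79.8%) and 52.6% (160 pairs), and gut-draining libraries of different diets overlapped by 56.5% (400 pairs). Pairs share libraries, so they are not independent and no test was made.

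The leading V gene was also compared over the 4 gut-draining libraries of each number. Under sufficiency 3, 3, 2, 2 and 3 different genes led in numbers 1 to 5, and under deficiency 4, 4, 2, 4 and 4. Igkv4-59, for example, led in the jejunal and ileal libraries of sufficient number 2 and in the duodenal, jejunal and ileal libraries of sufficient number 3. Whether a number marks 1 mouse is not given in the labels.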
